A study of Mus musculus with 15 samples.

Results

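The genes described here are 10 genes of neural progenitors and early neurons: Nes, Nefl, Nefm, Sox1, Sox4, Sox11, Pax6, Ncam1, Tubb3 and Map2. They were chosen by name, by taking the non-control probes whose RefSeq accession belongs to one of these symbols. Such probes were found for 10 of the 10 genes, of 21364 genes with a named probe on the array, and all 10 passed the filter on dim signals that left 14429 genes for testing. Passing that filter required a signal well above background on the 3 arrays of at least 1 group, so a gene could pass through the group where it was brightest.

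RNA of mouse embryonic stem (ES) cells was measured on 15 single-colour Agilent arrays, 3 for each of 5 groups. The groups were wild-type ES cells, Nat1-null ES cells, Nat1-null cells with a tet-inducible Map3k3 transgene cultured without doxycycline (Dox; uninduced Map3k3 cells) or with Dox (induced Map3k3 cells), and Nat1-null cells with a tet-inducible EGFP transgene cultured with Dox (EGFP cells). Nat1 is the labels' name for Eif4g2, which encodes a translation factor related to eIF4G, and Map3k3 encodes the kinase MEKK3. All groups grew in ES cell medium on gelatin, the 3 transgenic groups all lack Nat1, and only wild-type cells retain it. The number of clones behind each line and the length of Dox treatment are not given in the sources used here. The comparisons address what the loss of Nat1 changed and what Map3k3 expression changed in cells without Nat1.

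Neural progenitors form from pluripotent cells when SOXB1 factors such as SOX1 and the paired-box factor PAX6 take over the transcriptional programme of the neural plate. The SOXC factors SOX4 and SOX11 act in committed progenitors and young neurons, nestin is the intermediate filament of dividing progenitors, and neurofilaments replace it in neurons. ES cell cultures are kept undifferentiated, and low levels of such transcripts in them are known from cells that begin to differentiate.

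Signals are given as log2 of the processed signal minus the array's 75th percentile over probes, so 0 is the level of that percentile and 1 unit is a doubling. Such values depend on the probe, and levels were compared between groups for 1 probe at a time. A gene was called changed at a limma adjusted p under 0.05 and a difference of at least 1.5-fold. In a group where a probe was not well above background on all 3 arrays, the fold is given as a lower bound ("at least"). In bulk RNA, a change in the share of cells that express a gene and a change in RNA per cell cannot be told apart.

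Eif4g2, the targeted gene, had 4.31 ± 0.15 (SD, n = 3) in wild-type cells and 1.71 ± 0.20 in null cells, a 6.06-fold difference (adjusted p = 2.31e-08), and its mean lay between 1.56 and 1.62 in the 3 transgenic groups. The Map3k3 probe read -0.50 ± 0.15 in induced cells against -0.69 ± 0.22 in uninduced cells (difference 0.18, SE 0.12, adjusted p = 0.236) and -0.77 ± 0.10 in EGFP cells (difference 0.27, adjusted p = 0.086). So the Map3k3 signal was not called higher under Dox, and whether that probe lies within the transgene, or the Eif4g2 probe within the deleted part, was not determined here. All 10 of 10 ES cell markers were well above background in every group. Their summed linear signal, in multiples of the 75th percentile, was 753 to 815 in wild-type, 1317 to 1379 in null, 1269 to 1328 in uninduced, 972 to 1027 in induced and 1288 to 1309 in EGFP cells. Of these markers 7 were called higher and 0 lower in null than in wild-type cells, and 4 were called lower and 0 higher in induced than in uninduced cells, where 17.2% of all genes tested were higher in null and 5.58% lower in induced cells. Arrays of 1 group correlated at 0.985 or more across the 14429 genes tested, and between 42.7% and 53.9% of probes per array were well above background.

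Loss of Nat1 went with lower signal of Nes, Nefl, Sox4, Sox11 and Tubb3 and higher signal of Ncam1, and Sox1 was not called. Nefm, Pax6 and Map2 were also called lower, but they passed the filter through wild-type cells alone, so that they could come out only as lower in the other groups. With these, 8 genes were called lower and 1 higher, where 37.7% of all genes tested were called, 17.2% higher and 20.5% lower in null cells. Of the 6 genes with a probe well above background on all 15 arrays, 4 were called lower and 1 higher. With Map3k3 induction, Nes, Nefl, Sox4 and Sox11 were higher and Tubb3 was lower than in uninduced cells. Nefm was also called higher, but was not well above background on any array of either group, and its difference fell from 0.70 to 0.04 with quantile normalization and 0.02 with normexp background correction, where it was not called. With it, 5 genes were called higher and 1 lower, where 17.8% of all genes were called, 12.2% higher and 5.58% lower. Against EGFP cells, which also received Dox, 4 genes were higher (Nes, Nefl, Sox4 and Sox11) and Tubb3 was lower, where 18% of all genes were called, 12.4% higher and 5.64% lower. Ncam1 was called lower in induced than in uninduced and EGFP cells only with replicate number as a block. Induced cells still differed from wild-type cells in 7 of the 10 genes, 6 lower and 1 higher, where 38.2% of all genes were called, 18.3% higher and 19.9% lower. The 6 include Nefm, Pax6 and Map2, which could come out only as lower. Of the 6 genes well above background on all 15 arrays, 3 were called lower and 1 higher in this comparison. The median difference of the 10 genes was -3.22 for null against wild-type cells, 0.71 for induced against uninduced, 0.33 for induced against EGFP and -2.13 for induced against wild-type cells. Over all genes tested the same medians were 0.07, -0.07, -0.09 and -0.01; the medians of the 10 genes include those at background outside wild-type cells. The arrays of the groups compared did not overlap for 10 of the 10 genes in null against wild-type cells, 7 in induced against uninduced, 6 in induced against EGFP and 9 in induced against wild-type cells, where 71.9%, 50.1%, 49.3% and 70.7% of all genes did not overlap. The 10 and the 9 genes without overlap against wild-type cells include Nefm, Pax6 and Map2. These comparisons share groups: null cells and induced cells were both set against wild-type cells, and induced cells enter 3 of the comparisons.

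**Figure D1:**
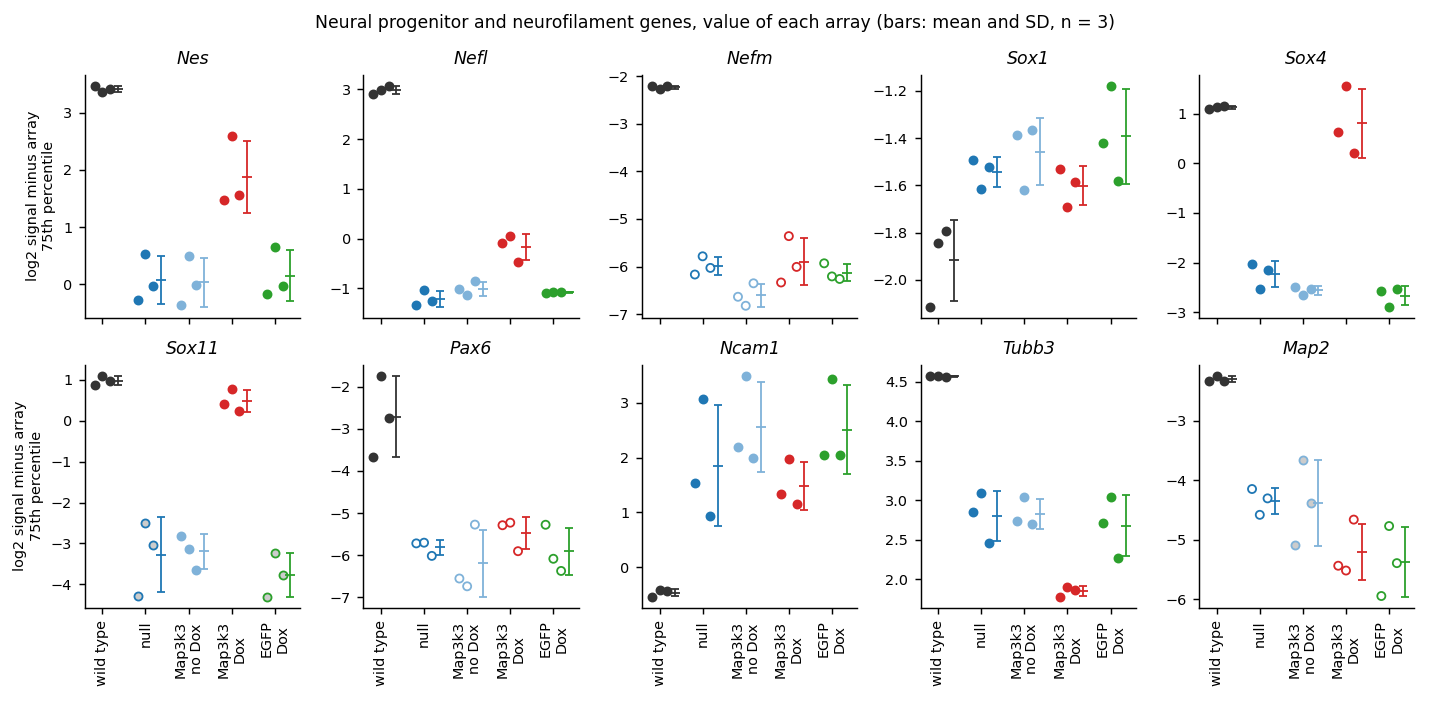
Signal of the 10 genes on each of the 15 arrays, as log2 of the processed signal minus the array's 75th percentile, with an axis of its own for each gene; points are arrays, bars the mean and SD (n = 3). Filled points mark groups with all 3 arrays well above background, grey points 1 or 2 arrays and open points none; Sox4 and Sox11 of induced Map3k3 cells lie near wild-type cells, and Nefm, Pax6 and Map2 are above background on all 3 arrays in wild-type cells only.

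Sox4 and Sox11 encode the SOXC transcription factors, single-exon genes with a conserved HMG box. Sox4 read 1.09, 1.13 and 1.16 on the 3 wild-type arrays and -2.04, -2.53 and -2.14 on the null arrays. It read -2.49, -2.66 and -2.53 in uninduced cells, -2.57, -2.89 and -2.54 in EGFP cells, and 0.63, 1.56 and 0.21 in induced cells. The 3 induced arrays stood above all 9 arrays of the other Nat1-null groups, and the second of them exceeded every wild-type array. Sox4 was 10.3-fold lower in null than in wild-type cells (log2 difference -3.36, SE 0.26, adjusted p = 4.37e-07). It was 10.3-fold higher in induced than in uninduced cells (3.36, SE 0.26, adjusted p = 1.45e-06) and 11.1-fold higher than in EGFP cells (3.47, SE 0.26, adjusted p = 1.12e-06). Against wild-type cells the difference was -0.32 (95% interval -0.89 to 0.25, adjusted p = 0.307), which was not called. Without the second induced array it was -0.70 (adjusted p = 0.00315) and was called lower, so this comparison rested on that array. With normexp background correction, which raises dim signals by an offset, the folds were 6.34 for null against wild-type, 6.06 for induced against uninduced and 6.07 for induced against EGFP cells, and each stayed called.

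Sox11 read 0.87, 1.10 and 0.98 in wild-type cells and 0.41, 0.77 and 0.24 in induced cells. It read -4.29, -2.51 and -3.03 in null cells, with 2 of 3 arrays well above background, -2.81, -3.14 and -3.65 in uninduced cells, and -4.30, -3.23 and -3.77 in EGFP cells, again with 2 of 3 arrays above background. The wild-type and induced arrays did not overlap with those of the other 3 groups. Sox11 was at least 18.2-fold lower in null than in wild-type cells (log2 difference -4.26, SE 0.40, adjusted p = 2.00e-06). Induced cells were 12.8-fold above uninduced cells (3.67, SE 0.40, adjusted p = 2.21e-05) and at least 17.0-fold above EGFP cells (4.24, SE 0.40, adjusted p = 6.76e-06). Against wild-type cells the difference was -0.51 (95% interval -1.37 to 0.36, adjusted p = 0.29), not called although all 3 induced arrays were below all 3 wild-type arrays. With normexp background correction the folds were 8.77 for null against wild-type, 6.20 for induced against uninduced and 7.08 for induced against EGFP cells, below the values above and still called.

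Each SOXC gene had a second probe. The other Sox4 probe gave -3.63 (SE 0.33) for null against wild-type cells, 3.03 for induced against uninduced, 3.06 against EGFP and -0.62 against wild-type cells. The other Sox11 probe gave -4.98 (SE 0.42), 4.82, 4.46 and -0.36. Both second probes gave the same calls as the first in these 4 comparisons. Neither was well above background on any null, uninduced or EGFP array, so their differences from those groups rest on background values. The second Sox4 probe was above background on 2 of 3 induced arrays and passed the filter through wild-type cells alone.

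Since Sox4 and Sox11 moved together and Tubb3 moved the other way under induction, the 250 bases before the annotated start of these 3 genes are shown, 5′ to 3′ on the strand of the gene, from RefSeq (GRCm38.p6). Such windows were found for 7 of the 10 genes, all but Nefl, Nefm and Ncam1. Capitals mark matches to the E-box CANNTG in the Sox4 (chr13:28953700-28953949, minus strand) and Sox11 (chr12:27342719-27342968, minus strand) windows, and to ACAATG, a SOX-type core read on either strand, in the Tubb3 window (chr8:123411303-123411552, plus strand).
Sox4: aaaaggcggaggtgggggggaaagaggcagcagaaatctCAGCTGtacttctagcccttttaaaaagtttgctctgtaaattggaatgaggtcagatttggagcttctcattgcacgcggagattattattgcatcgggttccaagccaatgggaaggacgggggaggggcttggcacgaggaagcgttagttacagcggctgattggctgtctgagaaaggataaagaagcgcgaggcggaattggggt
Sox11: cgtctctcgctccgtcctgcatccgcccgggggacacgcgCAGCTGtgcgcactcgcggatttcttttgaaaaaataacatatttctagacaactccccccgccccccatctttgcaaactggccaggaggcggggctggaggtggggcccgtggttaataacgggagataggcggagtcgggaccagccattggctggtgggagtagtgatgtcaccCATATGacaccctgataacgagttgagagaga
Tubb3: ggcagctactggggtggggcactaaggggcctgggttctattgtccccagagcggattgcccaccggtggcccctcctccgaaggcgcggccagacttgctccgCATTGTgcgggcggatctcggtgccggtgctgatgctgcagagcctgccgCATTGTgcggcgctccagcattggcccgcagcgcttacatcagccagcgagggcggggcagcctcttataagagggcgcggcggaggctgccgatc

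The Sox4 window held 1 E-box and the Sox11 window 2. The upstream match was CAGCTG in both, at 211 to 206 bases before the start of Sox4 and 210 to 205 bases before that of Sox11. Of all 32851 windows of this length, 66.2% held at least 1 CANNTG and 13.0% held CAGCTG, which is one form of CANNTG. The Tubb3 window held 2 copies of ACAATG on its reverse strand, at 146 to 141 and 96 to 91 bases before the start, a motif in 10.7% of all windows. The AP-1 motif TGANTCA, searched because MEKK3 acts upstream of kinases that target AP-1, was in none of the windows of the 7 genes and in 6.75% of all windows. The cyclic AMP response element TGACGTCA, in 1.55% of all windows, was in 1 of the 2 Pax6 windows, and TATAAA, in 12.4%, was in none. All motifs were searched on both strands, and a match or its lack in these windows says nothing about binding. The GC content was 50.8% for Sox4, 58.0% for Sox11 and 68.0% for Tubb3, against a median of 52.4% over all windows.

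Nes encodes nestin, the intermediate filament protein of neural stem and progenitor cells. It read 3.47, 3.35 and 3.42 in wild-type cells, and -0.27, 0.53 and -0.03 in null cells. Uninduced cells had -0.36, 0.49 and -0.01, EGFP cells -0.17, 0.65 and -0.02, and induced cells 1.47, 2.59 and 1.56. The induced arrays lay between the wild-type arrays and those of the other Nat1-null groups and overlapped with neither. Nes was 10.1-fold lower in null than in wild-type cells (log2 difference -3.34, SE 0.33, adjusted p = 2.99e-06). Induced cells had 3.57-fold more signal than uninduced cells (1.83, SE 0.33, adjusted p = 0.000947), 3.30-fold more than EGFP cells (1.72, adjusted p = 0.00137) and 2.90-fold less than wild-type cells (-1.54, adjusted p = 0.0014). Without the second induced array, the highest of the 3, the difference from uninduced cells was 1.48 (2.78-fold, adjusted p = 0.00289). The first slide row held only 1 induced and 1 EGFP array, on different slides, and their difference was 1.49.

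Nefl and Nefm encode the light and medium neurofilament subunits, which assemble together in axons, and the genes lie close together on chromosome 14 of GRCm38.p6. Nefl read 2.92, 3.00 and 3.08 in wild-type cells, -1.34, -1.04 and -1.26 in null cells, -1.02, -1.14 and -0.86 in uninduced cells, and -1.09, -1.07 and -1.07 in EGFP cells. Induced cells had -0.10, 0.05 and -0.47, above every array of the other Nat1-null groups and below every wild-type array. The null cells were 18.5-fold below wild-type cells (log2 difference -4.21, SE 0.12, adjusted p = 2.45e-10). Induced cells were 1.78-fold above uninduced cells (0.83, SE 0.12, adjusted p = 0.000271) and 1.88-fold above EGFP cells (0.91, adjusted p = 0.000134), and 8.99-fold below wild-type cells (-3.17, adjusted p = 1.95e-09).

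Nefm was well above background only in wild-type cells, at -2.21, -2.27 and -2.21. On the 12 other arrays it was at background, with group means of -5.99 in null, -6.60 in uninduced, -5.90 in induced and -6.13 in EGFP cells. The wild-type level was at least 3.39-fold above that of null cells (adjusted p = 2.86e-08) and at least 3.19-fold above that of induced cells (adjusted p = 3.48e-08). With normexp background correction these folds were 2.33 and 2.54, below the stated bounds and still called. Its call in induced against uninduced cells (0.70, SE 0.21, adjusted p = 0.019) therefore compared groups that were both not well above background, and no fold is given. With quantile normalization the adjusted p was 0.866 and with normexp background correction 0.863. Without the second induced array it was 0.43 (adjusted p = 0.0564), and without the first or the second uninduced array 0.69 (adjusted p = 0.0519) or 0.59 (adjusted p = 0.0685). Between Nefl and Nefm, a higher level above background under Map3k3 induction was thus measured for Nefl and not for Nefm.

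Sox1 and Pax6 encode transcription factors of the neural plate. Sox1 read -2.11, -1.84 and -1.79 in wild-type cells and between -1.69 and -1.18 on all 12 other arrays. The wild-type arrays were thus the lowest, in contrast to the SOXC genes. The difference of null from wild-type cells was 0.37 (1.30-fold, SE 0.11, adjusted p = 0.013), under the 1.5-fold minimum. The second Sox1 probe gave 1.18 (SE 0.17, adjusted p = 0.000114) for null and 1.27 (adjusted p = 6.35e-05) for induced against wild-type cells, both called higher. The probes therefore had the same direction and a different size, and their mean, at 0.78 for null against wild-type cells (adjusted p = 0.000142), was called. Map3k3 induction gave -0.15 (adjusted p = 0.339) against uninduced and -0.21 (adjusted p = 0.165) against EGFP cells by the first probe.

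Pax6 had -3.66, -1.74 and -2.74 in wild-type cells, a wide spread, and was not well above background on any of the other 12 arrays. It was at least 2.43-fold lower in null (adjusted p = 0.000134) and at least 2.29-fold lower in induced cells (adjusted p = 0.000333) than in wild-type cells. With normexp background correction these folds were 2.06 and 1.93. With slide as a block the difference of induced from wild-type cells was -3.45 (adjusted p = 0.00971), against -2.76 without it. That slide effect hinges on 1 EGFP array on the wild-type slide, and Pax6 was at background in EGFP cells. Its second probe was at background in all 5 groups. A Pax6 signal under Map3k3 induction was not detectable on these arrays.

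Ncam1 encodes the neural cell adhesion molecule, an immunoglobulin-family protein of neurons that other cells also carry. Wild-type arrays read -0.54, -0.42 and -0.44 and were lower than all 12 others. Null arrays read 1.54, 3.08 and 0.94, uninduced arrays 2.19, 3.50 and 2.00, EGFP arrays 2.04, 3.45 and 2.05, and induced arrays 1.33, 1.97 and 1.15. The array with replicate number 2 was the highest in each of the 5 groups. Ncam1 was 4.99-fold higher in null (log2 difference 2.32, SE 0.56, adjusted p = 0.0031) and 3.87-fold higher in induced cells (1.95, adjusted p = 0.00882) than in wild-type cells. Without the second null array the first difference was 1.71 (adjusted p = 0.0117). With slide row as a block these differences were 1.86 (adjusted p = 0.0852) and 1.65 (adjusted p = 0.0654). The second with slide as a block was 1.26 (adjusted p = 0.363), where the slide effect hinges on 1 EGFP array on the wild-type slide. The mean of the passing probes gave 1.71 (adjusted p = 0.00786) for null against wild-type cells. The second probe gave 1.10 (adjusted p = 0.0392) and 0.83 (adjusted p = 0.109), and the third did not pass the filter. Induced cells were not called different from uninduced (-1.08, SE 0.56, adjusted p = 0.144) or EGFP cells (-1.03, adjusted p = 0.16). With replicate number as a block they were called lower, at the same differences, with adjusted p = 0.0175 and adjusted p = 0.0207.

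Tubb3 encodes the class III beta-tubulin of young neurons. It read 4.57, 4.58 and 4.56 in wild-type cells, 2.85, 3.10 and 2.46 in null cells, 2.74, 3.04 and 2.69 in uninduced cells, and 2.71, 3.04 and 2.27 in EGFP cells. Induced cells had the lowest values, 1.78, 1.91 and 1.86, below every other array. Null cells were 3.40-fold below wild-type cells (log2 difference -1.77, SE 0.19, adjusted p = 5.4e-06). Induced cells were a further 1.97-fold below uninduced cells (-0.98, SE 0.19, adjusted p = 0.00148), 1.77-fold below EGFP cells (-0.82, adjusted p = 0.00404) and 6.59-fold below wild-type cells (-2.72, adjusted p = 1.52e-07). With slide as a block the difference from wild-type cells was -3.33 (10.0-fold, adjusted p = 1.01e-05), where the slide effect hinges on 1 EGFP array on the wild-type slide. Within the first slide row, with only 1 induced and 1 EGFP array, the difference from EGFP cells was -0.49.

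Map2 encodes a microtubule-associated protein of dendrites. It read -2.33, -2.24 and -2.33 in wild-type cells, and was well above background on 1 of 3 uninduced arrays and on no null, induced or EGFP array, where means lay between -5.37 and -4.34. It was at least 3.24-fold lower in null (adjusted p = 0.000348) and at least 3.05-fold lower in induced (adjusted p = 2.07e-05) than in wild-type cells. With normexp background correction these folds were 1.73 and 2.18, below the stated bounds and still called. Induced and uninduced cells were not called different (-0.82, SE 0.36, adjusted p = 0.0886), both being largely at background. Without the third induced array the difference was -1.10 (adjusted p = 0.0443) and without the first uninduced array -1.18 (adjusted p = 0.0226), both past the threshold.

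**Figure D2:**
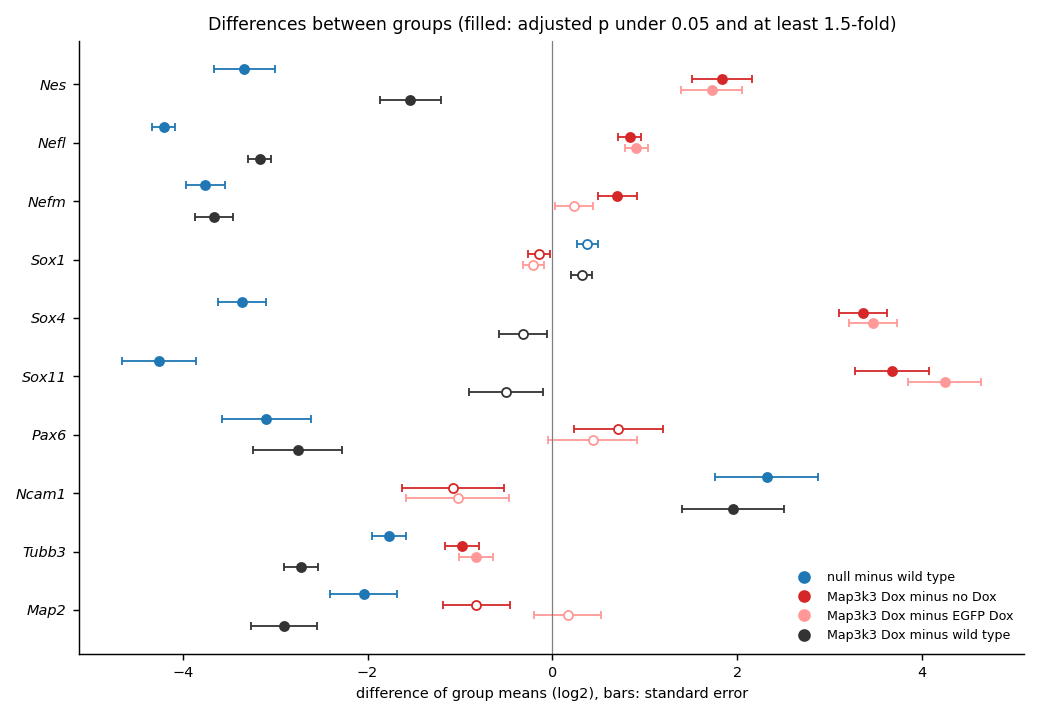
Difference of group means of the 10 genes (log2) with its standard error in 4 comparisons; filled points passed an adjusted p of 0.05 and 1.5-fold. Null minus wild type is negative for all genes but Sox1 and Ncam1, and induction of Map3k3 moves Sox4 and Sox11 by over 3 units and Nes by 1.83, with Tubb3 below 0; outside wild-type cells Nefm and Pax6 are at background on all arrays and Map2 on all but 1.

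The place of induced cells between uninduced and wild-type cells was expressed per array on the log2 scale, with the uninduced mean at 0% and the wild-type mean at 100%. Wild-type arrays lay on another slide than uninduced and induced arrays. Sox4 lay at 86.7, 112 and 75.2% (mean 91.3 ± 18.8, SD, n = 3) and Sox11 at 86.4, 95.0 and 82.3% (87.9 ± 6.45). Nes lay at 42.3, 75.7 and 45.2% (54.4 ± 18.5) and Nefl at 22.7, 26.4 and 13.4% (20.8 ± 6.70). Ncam1, lower in wild-type than in uninduced cells, lay at 40.6, 19.4 and 46.7% (35.5 ± 14.3). Tubb3 lay outside the interval, at -60.2, -52.8 and -55.2%, on the side away from wild-type cells. The 3 arrays of Nefl were all lower than those of Nes, and those of Nes did not all lie below those of Sox4.

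**Figure D3:**
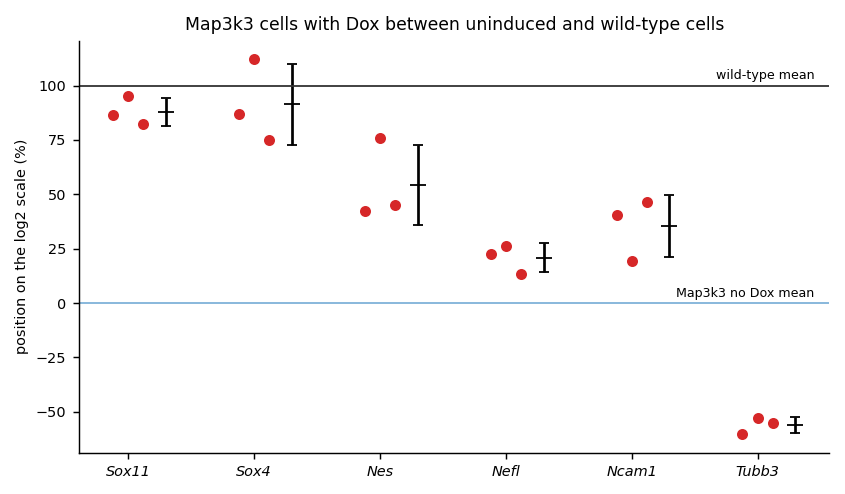
Place of the 3 induced Map3k3 arrays between the mean of uninduced cells (0%) and of wild-type cells (100%) on the log2 scale. The 6 genes shown were well above background on at least 13 of 15 arrays. Sox1 was so on all 15 but is not shown, its wild-type mean differing from the uninduced mean by -0.46. Points are arrays, bars the mean and SD. Sox4 and Sox11 average 91.3% and 87.9%, Nes 54.4%, Nefl 20.8%, Ncam1 35.5%, and all 3 Tubb3 arrays are below 0%.

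Among the 3 groups without Nat1 and without induced Map3k3, EGFP cells and uninduced Map3k3 cells were each set against null cells. EGFP cells differ from null cells in line, transgene and Dox together, and uninduced cells in line and transgene. No group without a transgene received Dox, so an effect of Dox alone cannot be told apart. By limma, 0 of the 10 genes were called for EGFP against null cells, and 0 for uninduced Map3k3 against null cells. In each of these comparisons 1 gene had an unadjusted p under 0.05. These genes were Map2 for EGFP cells (-1.02, adjusted p = 0.564) and Nefm for uninduced cells (-0.61, adjusted p = 0.243), both at background. Among all genes, 0.00693% and 0% were called. The arrays did not overlap for 2 of the 10 genes in EGFP against null cells, where 11.6% of all genes did not, and for 1 in uninduced against null cells, where 21% did not. For Sox4 the 95% intervals of these differences were -1.001 to 0.14 and -0.89 to 0.25, and for Nes -0.64 to 0.79 and -0.75 to 0.68, so smaller differences would not have been seen.

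Other genes of neural development were followed in lists that hold none of the 10 genes. Their counts are to be read against the shares over all genes tested, 20.5% lower and 17.2% higher in null against wild-type cells, and 5.58% lower and 12.2% higher in induced against uninduced cells. Genes of these lists that passed the filter through wild-type cells alone could come out only as lower in null cells, and they were not counted apart. Of 33 neural plate and progenitor factors, 24 were tested; 10 were lower and 6 higher in null cells than in wild-type cells (median -0.50). Zic2 and Zic5, zinc finger factors of the neural plate, were at least 11.1-fold (adjusted p = 0.000523) and at least 9.11-fold lower (adjusted p = 0.000666). Gbx2, a homeobox factor of the hindbrain border that ES cells also express, was 7.01-fold higher (adjusted p = 6.58e-09). With Map3k3 induction 6 of these factors were higher and 4 lower than in uninduced cells, with a median of 0.01 that turned to -0.05 with median scaling. Sox9, a SOXE factor of progenitors and of several other tissues, was at least 12.6-fold higher (adjusted p = 7.4e-10), Irx3 at least 8.24-fold (adjusted p = 0.000145) and Meis1 5.41-fold (adjusted p = 1e-08).

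Of 19 proneural and Notch genes, 13 were tested, with 7 lower and 2 higher in null cells (median -1.15). The Notch ligand Dll1 was at least 14.1-fold, the neuroendocrine zinc finger factor Insm1 at least 18.4-fold and Hes3 at least 4.27-fold lower. Under Map3k3 induction 2 were higher and 2 lower (median -0.35). Insm1 was at least 3.84-fold (adjusted p = 0.000972) and Ebf3 at least 2.78-fold higher (adjusted p = 4.78e-06), and Id4, an inhibitor of proneural factors, was 2.59-fold lower (adjusted p = 5.74e-06).

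Of 17 genes of the neuronal cytoskeleton, 16 were tested, with 9 lower and 2 higher in null cells (median -1.15). Crmp1 was 25.7-fold, Gap43 9.63-fold and Ina, which encodes the neurofilament-related alpha-internexin, 9.31-fold lower (adjusted p = 2.1e-07 for Ina). Under Map3k3 induction 1 was higher and 4 lower (median -0.13). The higher one was Ina, by 2.59-fold (adjusted p = 0.000591), while Stmn2 was 2.20-fold (adjusted p = 0.00824) and Mapt, which encodes tau, 1.86-fold lower (adjusted p = 0.0488). Of 13 genes for neuronal RNA-binding and synaptic proteins, 11 were tested, with 4 lower in null cells and 2 lower after induction, and none higher in either comparison. Called in either direction after induction were thus 2 of 11, where 17.8% of all genes were called. Elavl3 was 1.83-fold lower in null cells (adjusted p = 0.00382) and 1.93-fold lower in induced than in uninduced cells (adjusted p = 0.00464), and Rbfox3 was 2.40-fold lower in null cells (adjusted p = 0.0364).

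Of 14 neural adhesion genes, 8 were tested, with 6 lower and 2 higher in null cells (median -1.19). After induction 4 were higher than in uninduced cells and none was lower (median 0.64). Cdh2, which encodes N-cadherin, was 32.7-fold lower in null cells (adjusted p = 7.3e-06) and 9.40-fold higher after induction (adjusted p = 0.000681). St8sia4, which encodes a polysialyltransferase that modifies NCAM1, was at least 2.82-fold lower in null cells (adjusted p = 2.93e-06) and at least 5.17-fold higher after induction (adjusted p = 1.53e-06). Nrcam was at least 8.29-fold lower in null cells (adjusted p = 6.29e-05) and at least 2.21-fold higher after induction (adjusted p = 0.00951). With median scaling and with quantile normalization, each of the 5 lists had more lower than higher calls in null cells, with 8 lower and 7 higher neural plate factors under median scaling. The RNA-binding and synaptic list had 2 lower calls in null cells under median scaling, and the cytoskeleton list 2 lower calls after induction under quantile normalization.

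**Figure D4:**
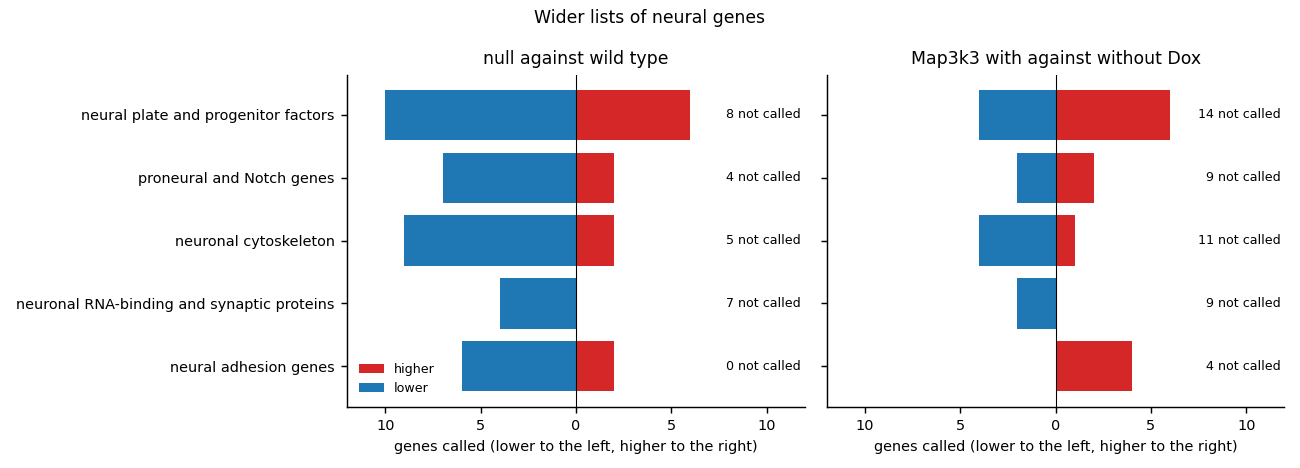
Number of genes called higher (right) or lower (left) in 5 lists of neural genes, for null against wild-type cells and for Map3k3 cells with against without Dox; each bar counts genes past an adjusted p of 0.05 and 1.5-fold, and the text gives those not called. In null cells lower calls outnumber higher calls in every list, and after induction the adhesion list has 4 higher and no lower calls. Genes that passed the filter through wild-type cells alone could only be lower in null cells.

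Marker genes of some other cell types also differed between the groups, in directions that varied by list, and their part in the results was not tested. Of 10 neuron markers, Dcx was not well above background in any group, and Syt1 was above background in wild-type cells only. The summed linear signal of that list was 55.0 to 58.3 in wild-type, 33.4 to 42.0 in null, 32.7 to 42.9 in uninduced, 21.6 to 29.2 in induced and 33.9 to 45.4 in EGFP cells. Of 13 fibroblast and feeder cell markers, 9 were well above background on all wild-type arrays, where the list summed to 95.4 to 101, with Pdgfra, Lum, Postn and Prrx1 at background. It summed to 6.39 to 6.66 in null, 5.22 to 6.64 in uninduced, 11.4 to 14.4 in induced and 5.41 to 6.04 in EGFP cells, with 8 of the 9 tested markers called lower in null than in wild-type cells, where 20.5% of all genes were. Acta2, Dcn and Twist2 were not well above background on any array outside wild-type cells, so they could come out only as lower in null cells. Of 10 trophectoderm markers, 9 were above background on all induced arrays. All 10 together summed to 339 to 403 in induced cells, against 186 to 192 in wild-type, 12.2 to 27.4 in null, 12.0 to 23.6 in uninduced and 11.0 to 23.4 in EGFP cells. Of the 9 tested, 8 were called lower in null than in wild-type cells and 8 higher in induced than in uninduced cells, where 20.5% and 12.2% of all genes were called in those directions. Cdx2 and Elf5 were at background in the 3 groups without Nat1 that had no induced Map3k3, and Elf5 also in wild-type cells. Of 8 primitive endoderm markers, 5 were above background on all induced arrays. All 8 together summed to 1.16 to 1.34 in induced cells, against 0.55 to 0.60 in wild-type, 0.67 to 0.79 in null, 0.50 to 0.56 in uninduced and 0.48 to 0.60 in EGFP cells. Of 9 glial markers, with Olig2 at background in all groups, the sum was 8.57 to 9.94 in wild-type, 10.3 to 11.1 in null, 9.82 to 12.8 in uninduced, 11.4 to 15.0 in induced and 9.81 to 11.6 in EGFP cells, so that induced and uninduced cells overlapped. The list of 7 neural crest markers had its lowest sum in wild-type cells, at 2.70 to 3.21 in wild-type, 9.98 to 11.7 in null, 7.83 to 10.2 in uninduced, 7.07 to 8.21 in induced and 8.40 to 9.99 in EGFP cells, with Tfap2b at background in all groups. Of the 6 tested, 2 were called higher and 2 lower in null than in wild-type cells.

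For each of the 10 genes, the 2 tested genes with the most similar profile were found by the root mean square difference of the 5 group means, each gene centred on its own mean. The nearest to Tubb3 were Fgf8 (0.07) and Pdzd4 (0.09), both with induced Map3k3 cells lowest. The nearest to Nes were Mfap3l and Septin4 (0.10 each), and to Sox4 Rnf217 (0.09) and Zfp697 (0.13). Sox11 had more distant neighbours, Fam149a (0.20) and Prag1 (0.22). Those of Nefl were Ecrg4 (0.11) and Slc16a10 (0.15), those of Ncam1 Rtp3 (0.13) and Muc1 (0.14), those of Sox1 Cdk5 and Tia1 (0.02 each), and those of Map2 Ccr7 and Efhc2 (0.21 each). For Nefm they were Slc35f1 and Xlr5b (0.04 and 0.05), and for Pax6 Igfbp5 and Cyyr1 (0.05 and 0.08). Many of these genes were dim. Slc35f1, Xlr5b, Igfbp5, Cyyr1, Ecrg4, Slc16a10 and Ccr7 were well above background on 3 of 15 arrays, Mfap3l on 4, Rtp3 on 5, and Rnf217 and Zfp697 on 6. Their likeness therefore rests in part on background values. Septin4, Pdzd4, Prag1, Cdk5 and Tia1 were above background on all 15 arrays, Fgf8 on 14, and Fam149a, Muc1 and Efhc2 on 10.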

How the data were processed

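Per the file headers, the authors' scanner files are Agilent Feature Extraction 11.5.1.1 output (protocol GE1_1105_Oct12) of 1-colour (Cy3) arrays. The deposited intensity column used here, the processed signal, is background-corrected by that software. The authors' deposited value table is on a log2 scale. It correlated at 1.0 on every array with the processed signal as scaled here, in the same direction. It served as an alternative, but one nearly identical to the main values, so its calls could hardly differ. The sources used here name no genome build for the probe design.

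Control and outlier-flagged spots were left out, spots of a probe were averaged, and log2 of the signal minus the array's 75th percentile over 55681 probes was taken; that percentile was 495 to 615 signal units, and no used spot was saturated. The number of arrays, 3 a group, limits the precision. Probes were named by unversioned RefSeq accession (28325 of 55681). A probe was kept if all 3 arrays of any 1 group read well above background (29767), and a gene was represented by its brightest kept probe (14429 genes). limma 3.58.1 in R 4.3.3 fitted all 15 arrays in 1 model with 10 residual degrees of freedom, with Benjamini-Hochberg adjustment over all genes. The script was tested on simulated data. A lower bound sets the brighter group's mean against the mean, in the dimmer group, of the higher of each array's lowest well-above-background signal and the probe's own signal.

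The samples are numbered replicates; nothing says they are separate cultures, so p-values may measure technical spread. Deviations of equally numbered arrays from their group means correlated at 0.101 to 0.617 over the 4 comparisons among Nat1-null groups. In those with wild-type cells they correlated at -0.0281 to 0.0592, so the numbers pair the Nat1-null groups. The main calls leave this pairing out, and the replicate block takes it in. Wild-type and null arrays share a slide but lie in different rows of it, so slide row and genotype cannot be told apart in that comparison alone. Induced and EGFP arrays link the rows. Uninduced and induced arrays lie on the other slide, and only EGFP arrays lie on both. Apart from that link, slide and group cannot be told apart where uninduced or induced cells are set against wild-type or null cells. The link hinges on the 1 EGFP array that shares the slide of wild-type and null cells.

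The 10 genes, the wider lists and the markers were chosen with earlier results of these data known. Besides the 10 genes, the text names Eif4g2 and Map3k3, the 2 most similar genes of each, and from the wider lists up to 3 genes with the largest measured changes per comparison. The normexp alternative used median signals, as mean signals were not used here. Other alternatives were quantile and median scaling, probe choice, filters, fold minimum, slide and row blocks, the replicate block and leaving out each array. The level of 1 neural crest marker is not reported here, and that list is summed without it.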

Additional observations from a re-analysis of the deposited data

How the results depend on the processing

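Of 1246 values of the 10 genes in 6 comparisons under alternatives, 1215 kept the side of the threshold, 20 lost and 11 gained the call. The sign changed in 41 values of 15 results, all of them differences that were not called; 0 called differences changed sign. Restricting to probes well above background on all 15 arrays left 6 of the 10 genes; 5 were then called for null and 4 for induced against wild-type cells. A 2-fold minimum left 3 genes called for induced against uninduced and 3 against EGFP cells. The alternatives included the authors' value table, nearly identical to the main values. They also included fits within 1 slide or slide row, some with only 1 array in a group. With the replicate block, the counts for null against wild-type, induced against uninduced, induced against EGFP, and induced against wild-type cells were 9, 7, 6 and 7, and 0 in both comparisons among the other Nat1-null groups; the block changed the call of Ncam1 in 2 comparisons and no other. Leaving out each array gave 9 to 9, 5 to 7, 5 to 5, 7 to 8, 0 to 0 and 0 to 0 called genes in the same order. Median scaling moved the median of all genes from 0.07 to 0.22 for null against wild-type cells. It moved the share of calls that were higher from 45.6% (2483 higher, 2962 lower) to 56.9% (3402 higher, 2581 lower). Of the 10 genes 8 were still called lower, among them Nefm, Pax6 and Map2, which could come out only as lower. Where alternatives changed a call, the cause was not tested. Signals of Nefm and Pax6 on all arrays outside wild-type cells, and of Map2 on all but 1, lay at background and limit what can be said of them.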
